A study of Homo sapiens with 18 samples.

Results

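The genes described here are the clustered histone genes as measured on Affymetrix HG-U133 Plus 2.0 arrays in U251 cells, an established human glioblastoma line. Members were chosen by their annotated symbol, which had to begin with HIST1, HIST2, HIST3, H2AC, H2BC, H3C, H4C or H1-. Only probe sets with 1 symbol were used, and where a gene had several probe sets the brightest by mean over the 18 arrays stood for the gene. The rule took 50 of 19775 genes, with 58 probe sets between them. No difference between treatments entered the rule, but the family was proposed with a result of these arrays in view, the rise of H2BC12 at 18 h, so that value is a description here and not independent support.

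Cells in RPMI medium with serum received the solvent DMSO or enzastaurin, an inhibitor of protein kinase C beta that also inhibits GSK3, for 4, 10 or 18 h. That gives 6 groups of 3 arrays: DMSO at 4, 10 and 18 h and enzastaurin at the same times. All groups are the same line, no genetic change is named in the labels, and the dose of enzastaurin is not given in the sources used here. The labels do not tell if the 3 arrays of a group stem from separate cultures; the p-values rest on the spread among these arrays alone, and that spread may be technical.

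By class the members were 11 H1, 9 H2A, 14 H2B, 7 H3 and 9 H4 genes. The symbol prefix is wider than the histone clusters. It took 42 coding genes of the clusters, 40 on chromosome 6 and 2 on chromosome 1 (H2BC21 and H2AC25). The other 8 were 3 H1 genes that lie elsewhere (H1-7, H1-8 and H1-10), H2BC12L, which is a copy of an H2B gene outside the clusters, 3 pseudogenes (H1-9P, H2AC5P and H4C10P) and the antisense RNA H1-10-AS1. Many clustered genes have nearly the same coding sequence, and 13 of the 50 were read by probe sets whose name ends in _s_at, _x_at or _a_at, the array maker's mark for probes shared between transcripts. A signal from such a probe set cannot be assigned to its named gene alone.

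Core histones H2A, H2B, H3 and H4 form the protein spool of the nucleosome, and linker histone H1 binds the DNA between spools. Most of their genes are transcribed when DNA is copied, under the coactivator NPAT, and their transcripts end in a stem-loop bound by SLBP in place of a poly(A) tail. Some clustered genes also give polyadenylated transcripts. The labels cite the standard Affymetrix protocol for the biotinylated cRNA, which primes on poly(A) tails, so transcripts without a tail are expected to be read weakly. The share of polyadenylated transcripts was not tested. In such bulk RNA, fewer cells that express a gene and less RNA per cell cannot be told apart.

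H2A and H2B genes often lie head to head and share a promoter, and H2B promoters are known for an octamer motif bound by the factor POU2F1. The RefSeq promoter table of the build GRCh38.p14 held 43 of the 50 members, as windows of 300 bases that reach from 250 before to 50 after the start site. On either strand, the octamer ATTTGCAT (ATGCAAAT on the other strand) was in 10 of 13 H2B windows (76.9%) and 6 of 8 H2A windows (75%). None of the 9 H1, 6 H3 and 7 H4 windows held it, and 492 of the 27305 windows of the table did (1.8%). TATAAA was in 65.1% of the member windows against 12% of all windows, and CCAAT in 86% against 35.7%. Among the H4 windows 2 of 7 held CCAAT, while every H2A, H2B and H3 window did. The windows are not independent, since 8 of them overlap that of another member, 6 of the 16 with an octamer among them.

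The upstream parts of 4 windows are shown, for H2A and H2B genes with calls (limma adjusted p under 0.05) described below. H2BC12 and H2AC6 were called higher with enzastaurin at 18 h, and H2BC5 was called lower at 4 h. H2BC9 was called lower in enzastaurin cells at 18 h than at 4 h. Of these calls only that of H2BC12 held with any 1 array left out. H2AC6, H2BC5 and H2BC9 were read by probe sets with shared probes, so their signal cannot be assigned to these genes alone. Each sequence is the 250 bases before the start site, read 5′ to 3′ on the strand of the gene, with the octamer, TATAAA and CCAAT in capitals on either strand. They lie at chr6:27146859-27147108 on the minus strand for H2BC12, and on the plus strand at chr6:26123922-26124171 for H2AC6, chr6:26157871-26158120 for H2BC5 and chr6:26251364-26251613 for H2BC9.
H2BC12: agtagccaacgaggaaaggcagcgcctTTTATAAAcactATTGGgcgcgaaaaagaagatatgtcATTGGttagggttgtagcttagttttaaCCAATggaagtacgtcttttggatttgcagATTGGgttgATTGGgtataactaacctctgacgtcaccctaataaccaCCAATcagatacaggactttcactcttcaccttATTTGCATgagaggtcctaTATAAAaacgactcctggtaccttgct
H2AC6: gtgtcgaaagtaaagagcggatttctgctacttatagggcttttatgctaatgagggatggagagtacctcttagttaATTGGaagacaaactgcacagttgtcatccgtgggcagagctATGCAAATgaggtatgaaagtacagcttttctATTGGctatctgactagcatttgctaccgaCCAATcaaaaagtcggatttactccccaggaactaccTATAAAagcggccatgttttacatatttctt
H2BC5: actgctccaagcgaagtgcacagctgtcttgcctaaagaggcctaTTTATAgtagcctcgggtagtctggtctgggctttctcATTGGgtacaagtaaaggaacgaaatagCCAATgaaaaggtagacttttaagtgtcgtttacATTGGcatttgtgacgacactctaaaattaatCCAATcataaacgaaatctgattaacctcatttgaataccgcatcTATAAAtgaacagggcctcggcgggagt
H2BC9: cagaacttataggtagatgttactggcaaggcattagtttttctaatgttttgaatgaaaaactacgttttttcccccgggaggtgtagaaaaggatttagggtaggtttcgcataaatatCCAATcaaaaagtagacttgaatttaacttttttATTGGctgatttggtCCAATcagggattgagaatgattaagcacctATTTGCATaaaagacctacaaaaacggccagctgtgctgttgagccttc
H2BC12 has the octamer starting at position -46 from the start site and a TATAAA at -27. H2BC9 has the octamer at -49 and no TATAAA. H2AC6 carries it at -130, and its window overlaps that of its neighbour H2BC4 by 255 of 300 bases, so the same octamer stands in both. These letters of the octamer are not in the H2BC5 window, and H2BC12L is not shown. A match describes the sequence only.

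Arrays of the same group were alike over all genes tested. Within groups they correlated at 0.977 to 0.986, none were identical, and array medians lay between 99.2 and 125.9 on the deposited intensity scale. At 4 h the medians were 110.8 to 123.7 in DMSO and 99.5 to 114 in enzastaurin. The arrays that deviated most from their groups were replicate 3 of enzastaurin at 10 h and replicate 3 of enzastaurin at 18 h. Of 12 astroglial and glioma markers 8 were above the level filter (VIM, NES, SOX2, SOX9, SLC1A3, CD44, PDGFRA and EGFR), while GFAP, S100B, OLIG2 and AQP4 were under it. Of the 8, 1 was called at 4 h, none at 10 h and 4 at 18 h, against 1.81%, 8.45% and 16% of all genes tested. The 18 h calls were SOX2 and EGFR, higher, and NES and PDGFRA, lower. With any 1 array left out their log2 changes were 0.41 to 0.49, 0.46 to 0.635, -0.73 to -0.63 and -2.745 to -1.425, called each time. The calls of SOX2, EGFR and NES were lost with the mean over probe sets (limma adjusted p 0.0884, 0.396 and 0.113). Of 12 markers of other cell types 4 passed, and their summed intensity is given beside the 18 h result.

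Only part of the family could be tested. Intensities were offset by 16 and put on a log2 scale, and a gene passed the level filter where its mean was at or above the median of all probe sets, an intensity of about 102. Of the 50 members 19 passed: 3 H1, 5 H2A, 6 H2B, 3 H3 and 2 H4 genes. Their mean intensities ran from 115 to 1825, and those of the 31 members under the filter from 9.39 to 104. On the filter's own scale H2AC4 (109.75) and H4C5 (128.65) lay just above it, and H2AC16 (100.62) and H2AC15 (93.21) just below. No member passed through only the enzastaurin arrays or only the DMSO arrays, and 10 of the 19 were read by probe sets with shared probes.

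The clearest change in the family was in H2BC12, which encodes an H2B protein: its signal overlapped that of DMSO at 4 h and was 2.002 times DMSO at 10 h and 3.88 times at 18 h. H2BC12L and H2AC6 were also called higher at 18 h. H2BC5 was called lower at 4 h, and H1-10 was called lower at 10 h. No H3 or H4 gene passed the test for enzastaurin against DMSO at any time. Here and below, called means an adjusted p under 0.05 from limma with Benjamini-Hochberg adjustment over 12376 genes, and changes are on the log2(intensity + 16) scale, which understates the change of dim genes.

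As a share of the family, these calls were few. At 4 h 1 of the 19 tested members was called (5.26%), against 1.81% of all genes tested. At 10 h it was 2 (10.5%) against 8.45%, and at 18 h 3 (15.8%) against 16%. The 18 h share is that of genes in general, so it is not a result about histone genes. An unadjusted limma p under 0.05 was reached by 4 of the 19 members at 4 h, 4 at 10 h and 7 at 18 h. Of the 12376 genes tested 1557, 2608 and 3461 reached it at these times.

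Called or not, most tested members were below DMSO at 4 and 10 h and above it at 18 h. The median log2 change of the 19 was -0.14 at 4 h, -0.12 at 10 h and 0.20 at 18 h, and over all genes tested it was 0.00, -0.02 and 0.00. Changes were above 0 in 6, 4 and 16 of the 19. After subtraction of array medians, which moved the median of all genes at 4 h to 0.12, the members' median at 4 h was -0.02 with 9 of 19 above 0. The medians at 10 and 18 h were then -0.11 and 0.20. These values describe the members as a group and were not tested.

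**Figure D1:**
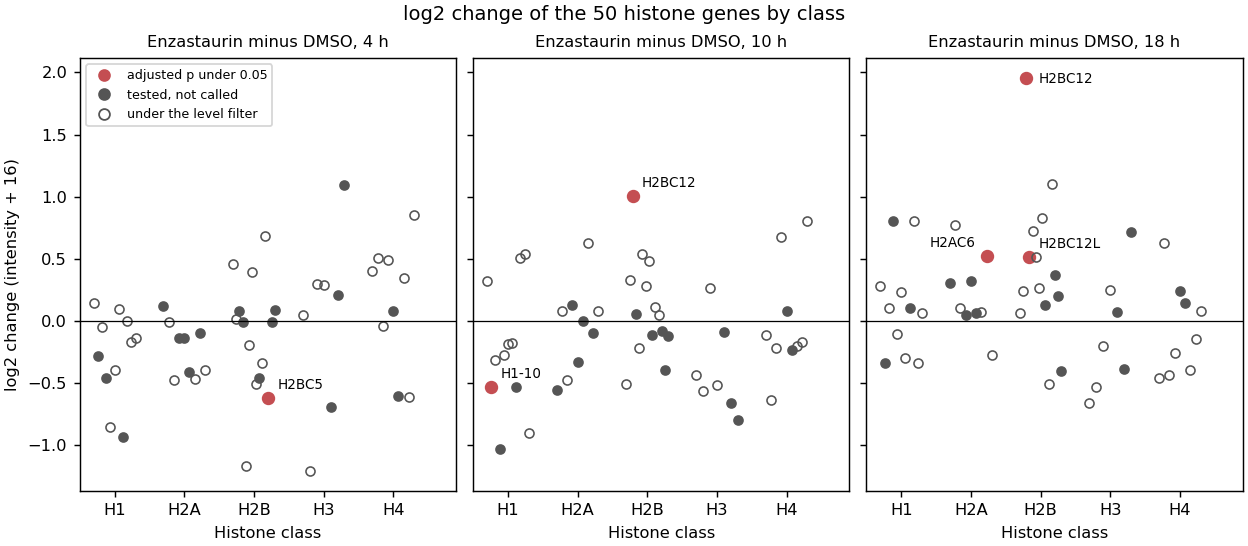
Log2 change of each of the 50 genes (points, y axis, enzastaurin minus DMSO on log2(intensity + 16)) by histone class (x axis) at 4, 10 and 18 h; red points were called, filled grey points were tested and not called, and open points were under the level filter. H2BC12 stands at 1.002 at 10 h and 1.96 at 18 h, above every other tested member at those times.

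H2B, the class with most tested genes, had 1 of its 6 called at 4 h, 1 at 10 h and 2 at 18 h. These were 16.7%, 16.7% and 33.3%, against 1.81%, 8.45% and 16% of all genes tested. They were H2BC5 at 4 h, H2BC12 at 10 h, and H2BC12 and H2BC12L at 18 h. Among the H1 genes 1 of 3 was called at 10 h (33.3%). With so few genes these shares are not a result about a class. H2BC12 had intensities of 549.4, 435.2 and 567.7 in DMSO and 593.9, 552.3 and 492.7 in enzastaurin at 4 h, and these overlapped. At 10 h DMSO arrays read 476.6, 536.5 and 462.1 and enzastaurin arrays 822.6, 1137.9 and 1063.2. At 18 h DMSO arrays read 474.0, 453.4 and 357.3 and enzastaurin arrays 1753.2, 1721.2 and 1620.3. Every enzastaurin array was above every DMSO array at 10 and 18 h.

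The group means of H2BC12 were 517 ± 71.8 and 546 ± 50.9 (SD, n = 3, DMSO and enzastaurin) at 4 h, 492 ± 39.4 and 1008 ± 165 at 10 h, and 428 ± 62.3 and 1698 ± 69.4 at 18 h. The log2 change was 0.08 at 4 h (SE 0.135, limma adjusted p 0.872), 1.002 at 10 h (adjusted p 5.4e-05) and 1.96 at 18 h (adjusted p 2.22e-09). It was called at 10 and 18 h with any 1 array left out, at 0.91 to 1.14 and 1.84 to 2.03. Its probe set, 209806_at, is the only one for the gene and carries no shared-probe suffix.

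H2BC12L is read by 208579_x_at, marked for shared probes. At 18 h its DMSO arrays were at 787.4, 653.6 and 743.6 and its enzastaurin arrays at 1054.2, 1158.9 and 928.6, with no overlap. The log2 change was 0.51 (SE 0.128, limma adjusted p 0.00802), and it stayed called with any 1 array left out. At 4 and 10 h it was -0.01 and 0.06. H2BC12L is a near copy of H2BC12, and on such probes their signals cannot be told apart.

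H2BC5 went the other way early. Its probe set 209911_x_at, again with shared probes, read 617.8, 558.3 and 601.7 in DMSO and 387.9, 440.6 and 316.6 in enzastaurin at 4 h, so all enzastaurin arrays were lower. The log2 change was -0.62 (SE 0.157, limma adjusted p 0.0457). At 10 h it was -0.09, and at 18 h 0.37 (adjusted p 0.122), with all 3 enzastaurin arrays above the DMSO arrays. The 4 h call was lost with any array but replicate 2 of enzastaurin left out (adjusted p up to 0.202), and the gene's other probe set, 222067_x_at, gave 0.38 at 4 h (adjusted p 0.616, in a fit of every probe set).

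H2BC9, also on a probe set with shared probes (208546_x_at), had overlapping groups at every time. At 18 h its DMSO arrays read 1160.7, 987.4 and 818.9 and its enzastaurin arrays 851.6, 698.8 and 667.9. The log2 change of -0.41 did not pass (SE 0.143, limma adjusted p 0.0592). It passed without replicate 3 of DMSO (-0.53, adjusted p 0.0223) and without replicate 1 of enzastaurin (-0.51, adjusted p 0.0351). The remaining tested H2B genes, H2BC6 and H2BC21, were at 0.20 and 0.13 at 18 h.

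**Figure D2:**
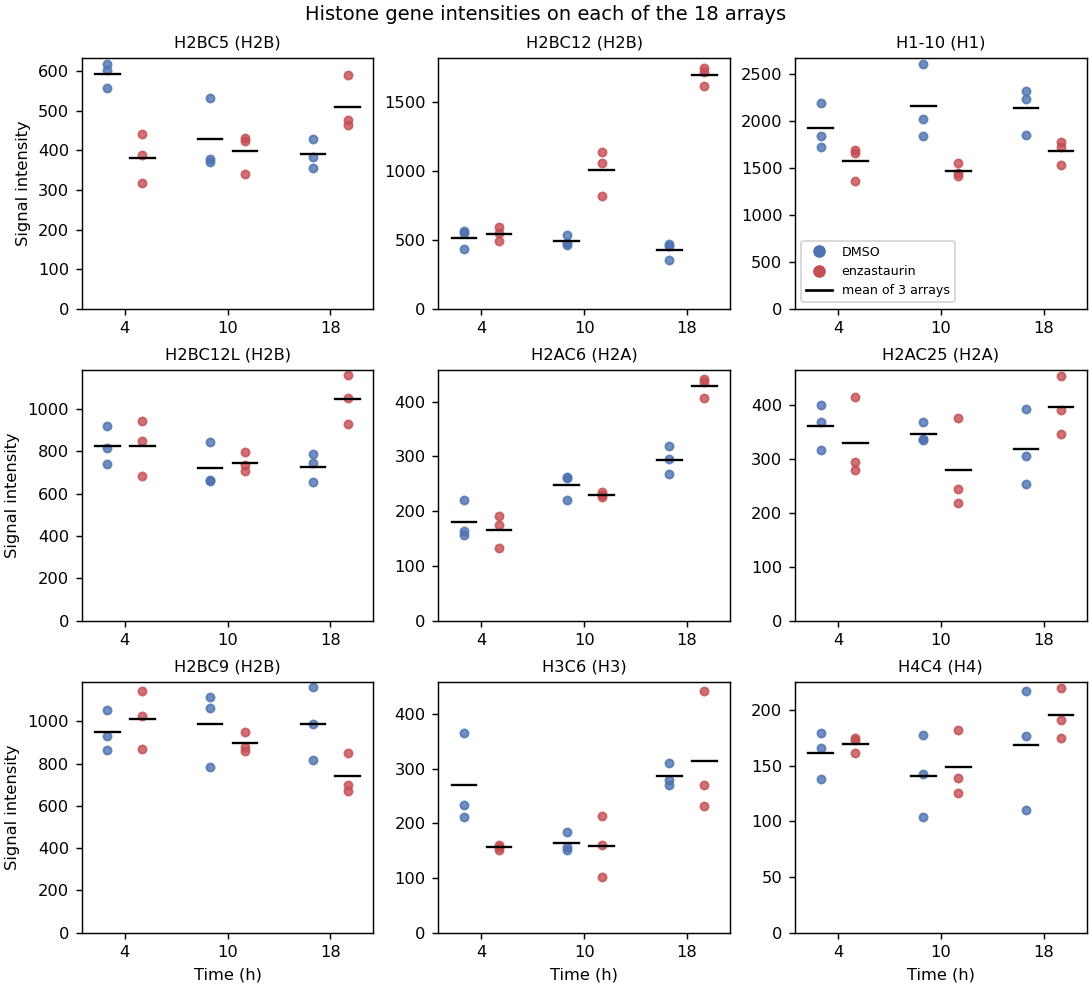
Intensity (y axis, linear, from 0) of 9 histone genes on each array at 4, 10 and 18 h (x axis, evenly spaced); blue points are DMSO, red points enzastaurin and bars the mean of 3 arrays. H2BC12 separates at 10 and 18 h, H2BC12L and H2AC6 at 18 h, and H1-10 lies lower with enzastaurin at each time.

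Among the 5 tested H2A genes only H2AC6 was called, at 18 h. Its probe set 215071_s_at read 268.3, 318.1 and 294.7 in DMSO and 435.9, 407.1 and 442.1 in enzastaurin, with no overlap. The log2 change was 0.52 (SE 0.172, limma adjusted p 0.0434), after -0.10 at both 4 and 10 h. The call rests on all 6 arrays, since leaving out any of them gave an adjusted p of 0.0601 to 0.142, although the change stayed between 0.46 and 0.58.

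The other H2A genes had 18 h changes of 0.05 to 0.32. H2AC25, the H2A gene on chromosome 1, read 393.3, 306.5 and 254.8 in DMSO and 391.1, 453.9 and 346.8 in enzastaurin at 18 h (0.32, limma adjusted p 0.328). These groups overlapped, as they did at 4 and 10 h.

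For the linker histones, 3 of 11 genes were tested and H1-10 was called at 10 h. H1-10, which encodes a linker histone from a gene on chromosome 3, read 2028.1, 1840.3 and 2611.8 in DMSO and 1559.8, 1419.5 and 1443.8 in enzastaurin at 10 h. Its probe set, 204805_s_at, is marked for shared probes. The log2 change was -0.53 (SE 0.122, limma adjusted p 0.00814), and without replicate 3 of DMSO it was -0.39 and no longer passed (adjusted p 0.0627). The call was also lost with array medians subtracted (-0.52, limma adjusted p 0.0755). All enzastaurin arrays were below all DMSO arrays at each time, but the changes at 4 h (-0.29, adjusted p 0.32) and 18 h (-0.34, adjusted p 0.0646) did not pass.

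H1-2, a clustered H1 gene, was named after its values were seen. At 10 h it read 184.8, 153.9 and 173.1 in DMSO and 106.3, 134.4 and 25.0 in enzastaurin, a change of -1.03 (SE 0.367, limma adjusted p 0.0931). At 18 h it read 217.8, 110.1 and 122.0 against 253.4, 222.7 and 321.7, a change of 0.81 (adjusted p 0.156). Neither passed, and the array at 25.0 stands far below the others. The spread of H1-2 was among the wider ones in the family, whose standard errors ran from 0.122 to 0.563. In 17 of the 19 it was above 0.134, the median of all genes, so a change must be larger here to be called.

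Neither H3 nor H4 gave a call in the treatment comparisons. H3C6 read 210.9, 234.1 and 364.6 in DMSO and 157.1, 160.6 and 151.8 in enzastaurin at 4 h, without overlap, at -0.69 (SE 0.256, limma adjusted p 0.231). At 10 and 18 h its groups overlapped, at -0.09 and 0.07. H3C7, named after its values were seen, came nearest the threshold in this class with -0.67 at 10 h (adjusted p 0.0503). H3C8 had the widest spread, with changes of 1.09, -0.80 and 0.72 at the 3 times and an SE of 0.563.

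H4C4 read 217.2, 110.5 and 176.6 in DMSO and 190.8, 175.1 and 219.1 in enzastaurin at 18 h, at 0.24 (SE 0.247, limma adjusted p 0.607). The other tested H4 gene, H4C5, was at 0.14. H4 is also the class with the fewest genes above the filter.

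The 31 members under the filter were fitted with all 19775 genes and none was called. In that fit 0.87% of genes were called at 4 h, 4.33% at 10 h and 8.77% at 18 h, and of the 50 members 0, 2 and 2 were, at 10 h H2BC12 and H1-10 and at 18 h H2BC12 and H2BC12L. At 18 h the changes of the 31 ran from -0.67 to 1.10, 18 of them above 0, with a smallest adjusted p of 0.181. By class 5 of 8 H1, 3 of 4 H2A, 7 of 8 H2B, 1 of 4 H3 and 2 of 7 H4 genes under the filter were above 0. The gene with the smallest adjusted p was H2BC4, the neighbour whose promoter window overlaps that of H2AC6. It read 13.0, 25.8 and 56.3 in DMSO and 70.3, 72.6 and 97.5 in enzastaurin at 18 h, a change of 1.10 (SE 0.466), and was named for this value. Over all 50 members the median change was -0.04, -0.12 and 0.11 at the 3 times, and 20, 19 and 34 were above 0.

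Probe sets that name several genes lie outside the rule but read the same transcripts. There were 20 with histone symbols, which cover 40 histone genes, 19 of them on no other probe set, and a probe set could name up to 14. In a fit of 27307 probe sets past the filter, with 1.07%, 5.44% and 11.2% called at 4, 10 and 18 h, 6 of the 20 were tested. The only call among them was 214290_s_at, for H2AC18 and H2AC19, at 18 h: it read 516.0, 532.9 and 763.2 in DMSO and 927.6, 886.7 and 789.0 in enzastaurin, a change of 0.53 (SE 0.15, limma adjusted p 0.0223). The other probe set of the same gene pair, 218280_x_at, gave 0.33 and did not pass (adjusted p 0.445). The probe set 205967_at, which names 14 H4 genes, read 6027.3, 4898.4 and 3803.5 in DMSO and 7853.0, 7403.7 and 5324.5 in enzastaurin (0.49, adjusted p 0.145). In this fit H2BC12 and H2BC12L were called at 18 h and H2AC6 was not.

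**Figure D3:**
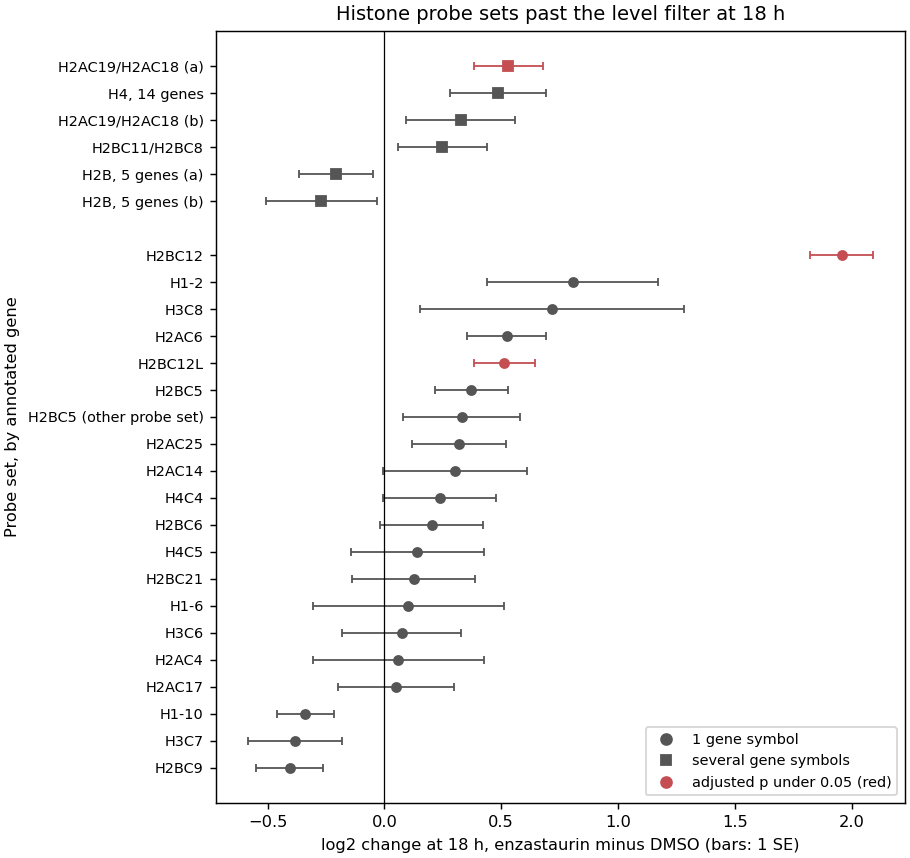
Log2 change at 18 h (x axis, enzastaurin minus DMSO, bars 1 SE) of every histone probe set past the filter, from the fit of all probe sets; circles name 1 gene, squares several, and red marks a call. H2BC12 at 1.96 lies apart from the others, which run from -0.41 to 0.81.

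The effect of enzastaurin was then compared between 18 h and 4 h. The difference between the effects was called for 2 of the 19 members (10.5%), against 7.78% of all genes. For H2BC12 it was 1.88 (SE 0.19, limma adjusted p 2.4e-06). That value uses the 18 h arrays for which the family was proposed, so it is not independent support. For H2BC5, low at 4 h and not at 18 h, the difference was 0.996 (SE 0.222, adjusted p 0.00709), and 0.48 (adjusted p 0.286) with the mean of its probe sets.

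Over time without the drug, 2 members were called between 4 and 18 h in DMSO (10.5%, against 20.3% of all genes). H2AC6 rose by 0.67 (SE 0.172, limma adjusted p 0.00798), from 220.5, 155.6 and 163.6 at 4 h to the 18 h values above. H2BC5 fell by 0.59 (adjusted p 0.0105), from the 4 h values above to 383.5, 356.6 and 428.8. With the mean of its probe sets the change of H2BC5 was -0.20 and not called (limma adjusted p 0.474), and its other probe set, 222067_x_at, gave 0.19. The 4 h DMSO arrays of H2BC5 were above all its other DMSO arrays.

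In enzastaurin cells 6 members were called between 4 and 18 h (31.6%, against 30% of all genes), 5 higher and 1 lower. H2BC12 rose by 1.61 (SE 0.135, limma adjusted p 1.31e-08), H2AC6 by 1.297, H4C5 by 0.92, H3C6 by 0.89 and H2BC12L by 0.34. H2BC9 fell by 0.44 (adjusted p 0.0232). H2BC12 was not called in DMSO over the same times (-0.26, adjusted p 0.191). The calls of H2BC12 and H2AC6 held with any 1 array left out. That of H2BC12L was lost (adjusted p up to 0.256) without replicate 2 or 3 at 4 h or replicate 1 or 2 at 18 h, and that of H2BC9 (up to 0.114) without replicate 1 or 3 at 4 h or replicate 2 or 3 at 18 h. That of H4C5 was lost (up to 0.148) without replicate 2 or 3 at 4 h or replicate 2 at 18 h, and that of H3C6 without replicate 3 at 18 h (0.0884). These comparisons share arrays with those between treatments, so they are not separate evidence.

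Genes that make, process and carry histones were counted from lists written with earlier results of these arrays known. In the list for histone transcription and mRNA processing 24 genes were tested, with 0 higher and 1 lower at 4 h, 1 and 0 at 10 h, and 2 and 1 at 18 h. Over all genes tested 1.81%, 8.45% and 16% were called at these times. SLBP, the stem-loop binding protein, read 6464.3, 6124.1 and 5963.6 in DMSO and 7647.5, 7809.4 and 7177.6 in enzastaurin at 10 h, a rise of 0.29 (SE 0.0609, limma adjusted p 0.00454). This call was lost with array medians subtracted (0.30, limma adjusted p 0.108). At 18 h the change of SLBP was 0.20 (adjusted p 0.0312), a call lost (adjusted p up to 0.115) with any array but replicate 3 of enzastaurin left out. NPAT read 788.7, 677.6 and 800.9 in DMSO and 519.0, 548.2 and 625.1 in enzastaurin at 4 h, a fall of 0.41 (adjusted p 0.0328) that was lost (adjusted p up to 0.157) without replicate 1 or 3 of DMSO or replicate 1 or 2 of enzastaurin. The NPAT call at 4 h was also lost with array medians subtracted (-0.30, limma adjusted p 0.263) and with only the groups compared (adjusted p 0.171). At 18 h NPAT was at 0.20 and not called. The other calls at 18 h were LSM10 (0.30), a subunit of the particle that cuts histone transcripts, and CPSF3 (-0.46), the nuclease of that step.

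The list of histone variants held 8 tested genes, with none called higher at any time. Of all genes tested 1.81%, 8.45% and 16% were called in either direction at 4, 10 and 18 h. H2AX was lower at 10 h (-0.30), a call lost without replicate 2 of DMSO (-0.27, limma adjusted p 0.0648). H2AZ2 was lower at 18 h (-0.34), a call lost (limma adjusted p up to 0.19) without replicate 3 of DMSO or replicate 1 or 3 of enzastaurin. Of 28 chaperone and nuclear import genes 1 was called lower at 4 h, 1 lower at 10 h, and 1 higher and 2 lower at 18 h, beside the same shares of all genes. Those at 18 h were ASF1B (0.23), ASF1A (-0.25) and ANP32E (-0.31), all carriers of histones; only that of ASF1A held with any 1 array left out. The 18 h count was 1 without replicate 1 and 5 without replicate 2 of enzastaurin. ASF1A was also the call at 4 h (-0.35); it was lost with array medians subtracted (-0.23, limma adjusted p 0.219) and with probe sets without shared-probe suffix (-0.12, adjusted p 0.577). DNAJC9 was that at 10 h (-0.24), lost without replicate 2 (adjusted p 0.0712) or replicate 3 (0.0717) of DMSO.

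The S phase and DNA replication list had calls in both directions. Its median at 18 h was 0.06. Of its 46 tested genes 1 was higher and 1 lower at 4 h, 2 and 2 at 10 h, and 7 and 4 at 18 h, against 1.81%, 8.45% and 16% of all genes tested. These counts moved when 1 array was left out: the 2 calls at 4 h became 0 without replicate 1 or 3 of DMSO or replicate 1 of enzastaurin, and 1 without replicate 2 of DMSO or replicate 3 of enzastaurin. The 4 at 10 h became 0 without replicate 3 of DMSO, 1 without replicate 1 or 2 of enzastaurin and 2 without replicate 2 of DMSO, and the 11 at 18 h became 7 without replicate 1 or 3 of DMSO. With each array left out in turn the counts ran from 0 to 6 at 10 h and from 7 to 12 at 18 h, so they also rose. The 4 with the smallest adjusted p at 18 h were cyclin E2, CCNE2 (0.52), the flap nuclease FEN1 (0.51), cyclin A2, CCNA2 (-0.35), and thymidine kinase TK1 (-0.35). Of 21 genes tested for cell cycle exit and arrest 4 were lower at 4 h, 1 higher and 4 lower at 10 h, and 1 higher and 2 lower at 18 h, beside the same shares of all genes. The 4 h count was 2 without replicate 3 of DMSO, and the 18 h count 1 without replicate 2 of DMSO. The 18 h calls were BTG1 (-0.58), an antiproliferative gene, the retinoblastoma gene RB1 (-0.34) and cyclin D3, CCND3 (0.23), which had the opposite sign with the mean of its probe sets (-0.13, limma adjusted p 0.726). Of these 3 only BTG1 stayed called with any 1 array left out.

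**Figure D4:**
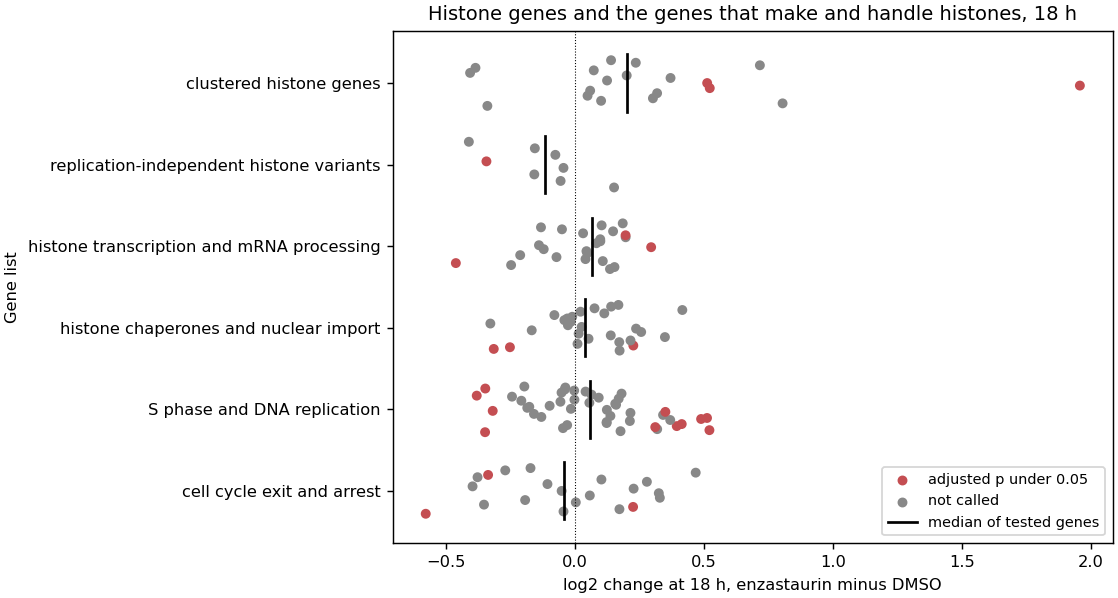
Log2 change at 18 h (x axis, enzastaurin minus DMSO) of each tested gene of the clustered histone genes and 5 lists (y axis); red points were called and the black bar is the median of the list. The median of the histone genes is 0.20, and those of the other lists lie between -0.11 and 0.07.

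Of 4 tested markers of other cell types 1 was called at 18 h, against 16% of all genes tested. The summed intensity of the 12 markers, 8 of them under the filter, was 1239.0 to 1515.3 in DMSO and 1559.2 to 2122.0 in enzastaurin at 18 h. The sums overlapped at 4 h (1380.2 to 1648.7 and 1240.1 to 1429.6) and at 10 h (1207.7 to 1270.9 and 1081.2 to 1750.1). Those of the 12 glioma markers overlapped at 18 h (64663.7 to 65425.2 and 53718.8 to 67964.8). Of the markers of other cell types CD3E, PECAM1, SYT1 and MBP passed the filter, and SYT1, a synaptic vesicle gene, was the only call. At 18 h it was at 0.86 and held with any 1 array left out; at 10 h it was at 0.39, and leaving out any of the 6 arrays of that time lost the call (limma adjusted p 0.0677 to 0.15). The other 8 (PTPRC, VWF, EPCAM, KRT5, CDH1, RBFOX3, MYOD1 and ALB) were under it. The part of these markers in the 18 h values of the histone genes was not tested.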

How the data were processed

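Total RNA of U251 cells was labelled as biotinylated cRNA and hybridized to 18 arrays, 3 in each of 6 groups. The deposited intensity values were made by the authors with GCOS 1.2, per the submitters' processing notes, as 1 linear signal for each of 54613 probe sets. Their 2% trimmed mean is 498.2 to 498.5 in every array, so arrays had been scaled to a common level, and values run from 0.1 to 63584.9. No detection calls were used, and the number of arrays limits the precision.

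Symbols came from the platform annotation, checked by gene identifier against RefSeq: 41091 probe sets had 1 symbol, for 19775 genes, of which 12376 passed the level filter. limma 3.58.1 in R 4.3.3 fitted 1 mean per group to log2(intensity + 16), with all 18 arrays in the fit, 12 residual degrees of freedom and a trend of variance with level. Contrasts were enzastaurin minus DMSO at each time, the 18 h minus the 4 h effect, and 18 h minus 4 h within each treatment. The code was tested on simulated data.

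Members named are those called at any of the 3 times, the highest-intensity tested member of each class, and H1-10; of each list, up to 4 genes called at 18 h with the smallest adjusted p, with NPAT and SLBP in any case. H1-2, H3C7, H4C5, H3C8, H2BC4, H2BC6, H2BC21 and list genes called only at 4 or 10 h were named after their values were seen. The lists are histone variants, histone transcription and mRNA processing, chaperones and nuclear import, S phase, cell cycle exit, glioma markers, and other cell types' markers. Members and lists were chosen with earlier results of these data known. With group means taken out, arrays of equal replicate number correlated at -0.0814 to 0.0544, and the numbers were not used as pairs. Alternatives were other offsets, filters, scalings, probe set rules, weights, variance trend, replicate blocks, fits of only the groups compared, and each array left out; those chosen after seeing the data are named as added. Promoter sequences are from RefSeq, build GRCh38.p14; its coordinates were used for the shown sequences only. Python 3.11.15 with matplotlib 3.10.9 drew the figures.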

Additional observations from a re-analysis of the deposited data

Results flagged for a closer look

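The effect of enzastaurin differed between 18 h and 4 h for 2 of the 19 tested members by the test of the difference itself. That is 10.5%, against 7.78% of all genes tested. The difference for H2BC12 uses the 18 h values for which the family was proposed, so it is not independent support. For H2BC12 the effect at 18 h minus that at 4 h was 1.88 (SE 0.19, limma adjusted p 2.4e-06), and with any 1 array left out it lay between 1.76 and 1.99. For H2BC5 it was 0.996 (SE 0.222, limma adjusted p 0.00709), and 0.87 to 1.10 with any 1 array left out, called each time. With the mean over the probe sets of H2BC5 it was 0.48 (adjusted p 0.286) and not called.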

How the results depend on the processing

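The count of clustered histone genes called was small, so a change of 1 gene moves it. At 4 h the 1 call became 0 with no level filter, array medians subtracted, the mean over probe sets, probe sets without shared-probe suffix, no trend, only the groups compared, and, added after seeing the data, every probe set on its own. With the replicate block it was 0 at 4 h as well, and the block left the counts of the 5 other comparisons as they were, although H2AC6 at 18 h was lost (adjusted p 0.051) and H1-10 was called (0.0289). At 10 h the 2 calls became 1 with array medians subtracted and, added, with coding genes of the clusters only, and 3 with array weights, the mean over probe sets, no trend and an offset of 64. At 18 h the 3 calls became 1 with probe sets without shared-probe suffix, 2 with no level filter, array medians subtracted, array weights and, added, coding genes of the clusters only and every probe set on its own, and 4 with the brightest 25% of probe sets, quantile normalization and only the groups compared. The difference of effects went from 2 to 1 with the mean over probe sets and with probe sets without that suffix. DMSO over time went from 2 to 1 with only the brightest 25% of probe sets and the mean over probe sets, and to 0 without the suffix. Enzastaurin over time went from 6 to 5 with no level filter, quantile normalization, no trend and only the groups compared. It was also 5 with, added, coding genes of the clusters only and every probe set on its own. The count was 4 with the brightest 25% of probe sets, array medians subtracted and the mean over probe sets, and 3 without the suffix. Genes read only by shared-probe sets give no value there. Leaving out 1 array gave 0 to 1 calls at 4 h, 1 to 3 at 10 h, 2 to 3 at 18 h, 2 to 2 for the difference of effects, 2 to 2 in DMSO and 3 to 5 in enzastaurin over time. Without both most deviating arrays (added) the counts were 1, 2, 2, 2, 2 and 4 in that order. With array medians subtracted, counts over all genes went from 224 to 79 at 4 h (69 higher and 155 lower against 54 and 25), 1046 to 443 at 10 h, 1981 to 1187 at 18 h, 963 to 546 for the difference of effects (504 and 459 against 143 and 403), 2518 to 1536 in DMSO and 3710 to 3050 in enzastaurin over time (2031 and 1679 against 939 and 2111). With the mean over probe sets they were 133, 658, 1410, 577, 1718 and 2711, with probe sets without the suffix 140 at 4 h, with only the groups compared 139 at 4 h, and with array weights 1521 at 10 h; the fit of every probe set called 292, 1486, 3068, 1312, 4448 and 6822 features. The call of CCND3 at 18 h had the opposite sign with the mean over probe sets (-0.13). Of 637 repeats of the named members' values 564 kept direction and side of the threshold, 45 lost a call, 8 gained one, 20 uncalled values changed sign, and no call changed direction. The causes of these changes were not tested.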
